A study of Mus musculus with 30 samples.

Results

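Retained intron transcripts are annotated RNAs of a gene in which part or all of an intron of another transcript stays in the sequence. Members were chosen by their measured mean level: they were the transcripts that the deposited annotation types as retained introns, on chromosomes 1 to 19, with a mean effective count of at least 20 over all 30 libraries. Effective counts are the adjusted estimates that eXpress gives for each transcript on a count scale, and they are not raw read counts. The rule used the mean level and no contrast between groups. Of 102906 transcripts in the tables, 13711 were retained intron transcripts on these chromosomes, and 3120 of them, from 2096 genes, were members. Level is given in CPM, the count scaled to the size of the library, normalised separately in each of 2 experiments, and share is the percent of the summed count of the same gene. FPKM, which also divides by transcript length, is used where levels of different transcripts are compared.

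All libraries came from the retina of Abca4-/-Rdh8-/- mice on the C57BL/6J background, aged 4 to 6 weeks, a strain that lacks 2 genes for the clearance of retinal aldehydes and is prone to light damage. Every group carried both deletions, so the genotype itself could not be compared. Animals were injected 30 min before bright light of 10000 lux for 30 min, and retinas were taken 24 h later. The mixture experiment had a no-light group and a light group given DMSO, and 2 groups given drugs before light: BMT (BRM, MTP and TAM) and MDB (MTP, DOX and BRM). The single-drug experiment had its own DMSO no-light and light groups and 4 groups given 1 drug before light: BRM (2-Bromo-α-ergocryptine methanesulfonate, a dopamine receptor agonist), MTP (metoprolol tartrate, a beta-1 blocker), TAM (tamsulosin, an alpha-1 blocker) and DOX (doxazosin, another alpha-1 blocker). Each of the 10 groups had 3 libraries. The labels do not say that these came from separate animals, so p-values measure only the spread between these samples.

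Introns are normally removed in the nucleus before mRNA is exported. An RNA that keeps an intron is often held in the nucleus or degraded by nonsense-mediated decay, and in some genes it is a pool that is spliced later. Genes of the splicing machinery, such as SR proteins and the CLK kinases that phosphorylate them, are known for introns retained as part of their own regulation, and neural tissue retains many introns. In the retina the hosts include genes of phototransduction, the cascade that turns light into a change of rod and cone membrane potential.

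Library totals ran from 18.5 to 25.8 M counts in the mixture experiment and from 12.0 to 22.2 M in the single-drug experiment, and members took 1.42 to 1.90% of a library. Neural retina markers were present throughout, with summed rod markers between 20794 and 74309 CPM. Lens fibre markers, which mark a tissue outside the retina, ranged from 40.4 to 13716 CPM, with a median of 3461, and microglia markers from 15.4 to 26.4 CPM. Of each of these lists, no marker was at 0 in all libraries. Abca4 counts of 315 to 933 CPM and Rdh8 counts of 19.1 to 47.4 CPM do not check the deletion, because where in each gene the reads fell was not analysed here. In the levels of several members named below, TAM replicate 2 stood apart from the other 2 TAM libraries and lay near the light libraries. By library measures TAM replicate 1 was the one apart. Its 12.0 M counts were the lowest total of all 30 libraries, against 18.6 and 17.1 M in TAM replicates 2 and 3. Its median member share was 5.19%, against 4.36 and 4.44%. No pair of replicates agreed within sampling noise, with a chi-square per degree of freedom of 14.5 to 54.4 over 30 pairs.

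Structures were read from the GENCODE M21 annotation of GRCm38, which matched 2865 of the 3120 members by transcript and exon positions. Of these, 1314 (45.9%) held at least 1 complete intron of a coding transcript of the gene, 1478 held part of one, and 73 held neither. Of the others, 181 members differed in structure from the reference and 74 were not in it. The 1314 members held 2170 distinct whole introns, with a median length of 352 bases (quartiles 157 and 886). The 28739 other introns of coding transcripts of the same genes had a median of 1248 bases (quartiles 419 and 3082.5). Of the whole introns, 2121 (97.7%) began with GT and ended with AG, and 30 (1.38%) began with GC. The 6 bases at the intron start were GTGAGT in 300 introns (13.8%) and GTAAGT in 208 (9.59%), and 331 (15.3%) were the last intron of a coding transcript.

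**Figure D1:**
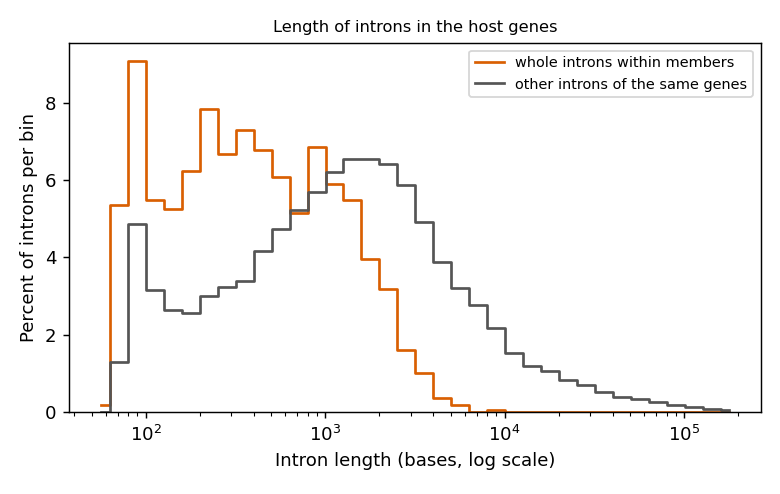
Length distribution of introns in the host genes. The x axis is intron length in bases on a log scale and the y axis the percent of introns in each length bin. The orange line is the 2170 whole introns held by members (median 352 bases) and the grey line the 28739 other introns of coding transcripts of the same genes (median 1248 bases).

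The sites below belong to members described in the results. Of these, 3 are from hosts of the splicing and nucleolar machinery with a large share, and 4 from photoreceptor or bipolar hosts. The other 2, Tnnt2-005 and Irf7-004, are from a list of glial, interferon and cytokine hosts. For each, the longest whole intron in the member is given on GRCm38, with 30 bases across its 5′ end and 30 across its 3′ end, from the transcript strand. Capitals mark the first 6 bases and the last 3 bases of the intron, which a spliced RNA would not contain.
Rsrp1-001, chr4:134925433-134926734, plus strand, intron start: aaaggtggagGTAAGTgccttcaggaagct
Rsrp1-001, intron end: aaaattctcttcctcttTAGcattcagaaa
Ncl-002, chr1:86352634-86353125, minus strand, intron start: acttggagtgGTAAGTtaaagggtttattg
Ncl-002, intron end: tgttatctttgtatttgCAGgtgaatcaaa
Clk1-003, chr1:58420212-58421082, minus strand, intron start: ttcacacgggGTATGAgtgccttttaaacg
Clk1-003, intron end: cgcccacttgacgtgtcCAGaagagtcacc
Tnnt2-005, chr1:135836447-135838147, plus strand, intron start: ctgttcagagGTAAGAcaagggggagctct
Tnnt2-005, intron end: caatggtctcctcctcaCAGgtcctgatag
Irf7-004, chr7:141264560-141264724, minus strand, intron start: gcccacacagGTACATctggtccatccttc
Irf7-004, intron end: ccggggacctcttgcttCAGgttctgcagt
Gnb3-002, chr6:124839406-124839663, minus strand, intron start: gcagattgctGTAACCccagagccctcgtc
Gnb3-002, intron end: gatgcccactttccccgCAGgatgccagga
Pde6b-002, chr5:108423584-108424296, plus strand, intron start: ggaaatcctgGTACTGttcttggtatttta
Pde6b-002, intron end: cacctgttgctctctgtTAGccaacaaggg
Nr2e3-002, chr9:59948825-59948924, minus strand, intron start: aaccaagatgGTGAGTggtgggcacggtga
Nr2e3-002, intron end: gagtctccctgctttccAAGctgtgcagaa
Gnat2-005, chr3:108095581-108096349, plus strand, intron start: aagctgtgcgGTACGTgattcatgttatct
Gnat2-005, intron end: cagatttctggattacaCAGgatgccggga
The Rsrp1, Ncl and Nr2e3 introns begin with the 2 most frequent starts given above, while the GTAACC of Gnb3-002 started 0.507% of the whole introns and the GTACAT of Irf7-004 0.461%. The introns are 1302 bases long in Rsrp1-001, 492 in Ncl-002, 871 in Clk1-003, 1701 in Tnnt2-005, 165 in Irf7-004, 258 in Gnb3-002, 713 in Pde6b-002, 100 in Nr2e3-002 and 769 in Gnat2-005.

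Most members were a minor product of their gene. The mean share over the 30 libraries had a median of 5.08% (quartiles 2.07 and 11.8%), 1544 members lay under 5%, and 86 lay over 50%. Of the host genes, 1432 had 1 member and 664 had 2 or more, up to 9 in 1 gene. Per length the median share was 7.22%, and the median member FPKM was 1.69. At the threshold, Slx1b-004 was just inside with a mean count of 20.01 and Rcor3-007 just outside with 19.9995. Of the 3120 members, 180 were at 0 in 1 or more libraries, and 176 would fall under 20 without their highest group.

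The 10 members with the highest mean FPKM were Rps20-002 (249 FPKM), Ppia-004 (191), Rpl13a-008 (184), Prph2-002 (156), Rsrp1-001 (112), Trf-011 (104), Uchl1-002 (87.0), Srsf5-005 (76.8), Ncl-002 (73.3) and Gabarapl2-002 (70.4). They span ribosomal proteins (Rps20, Rpl13a), a photoreceptor disc protein (Prph2), an iron carrier (Trf) and RNA-binding proteins (Srsf5, Ncl). Their shares differed widely, from 3.67% for Prph2-002 to 76.3% for Rps20-002. By structure, Rps20-002, Rsrp1-001, Srsf5-005 and Ncl-002 contained a whole intron, and Ppia-004, Prph2-002 and Gabarapl2-002 part of one. Trf-011 contained no intron of a coding transcript, Uchl1-002 differed from the reference and Rpl13a-008 was not in it. The reads of Trf-011 cannot be told from those of Gm20425, whose exons it overlaps by 369 bases on the same strand.

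Some hosts of RNA processing had a high share, chosen here for that share, while most members of these lists did not. The median share was 3.09% for SR-related members, 1.65% for hnRNP, 2.41% for spliceosome and 8.72% for CLK, cyclin L and other splicing kinase members, against 5.08% over all members. A mean share over 20% was reached by 10.3, 3.03, 5.71 and 26.3% of these lists and by 13.4% of all members. Rsrp1-001, from an arginine- and serine-rich protein gene, held 68.3 to 79.9% of its gene's count over the 30 libraries, with a median of 74.8%. Ncl-002, from the nucleolin gene of ribosome biogenesis, held 48.7 to 56.3%, with a median of 51.9%. Its group means lay between 50.7% in MDB and 54.9% in DOX, against a mean within-group SD of 1.78 percentage points. The splicing regulators followed in order, Srsf2-004 lying below the others without overlap: Srsf5-005 at 44.4 to 58.5% (median 50.6%), Rbm5-006 at 39.2 to 58.7% (46.7%) and Srsf2-004 at 26.03 to 37.8% (31.8%). Ccnl2-002, from a cyclin that partners splicing kinases, held 53.7 to 75.9%, with a median of 67.8%, and contained only part of an intron.

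Clk1-003, from a kinase of SR proteins, had its highest group in MDB. Its share was 31.4, 31.6 and 28.6% without light, 31.8, 28.9 and 30.7% with light, 29.7, 34.6 and 31.0% in BMT and 38.0, 36.0 and 36.9% in MDB. All MDB libraries lay above every other library of the mixture experiment. The log2 odds of the Clk1-003 share differed by 0.42 (95% interval 0.13 to 0.72) between MDB and light, which limma did not call (adjusted p = 0.744). In the single-drug experiment the Clk1-003 shares ran from 27.7 to 35.7% and the groups overlapped.

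**Figure D2:**
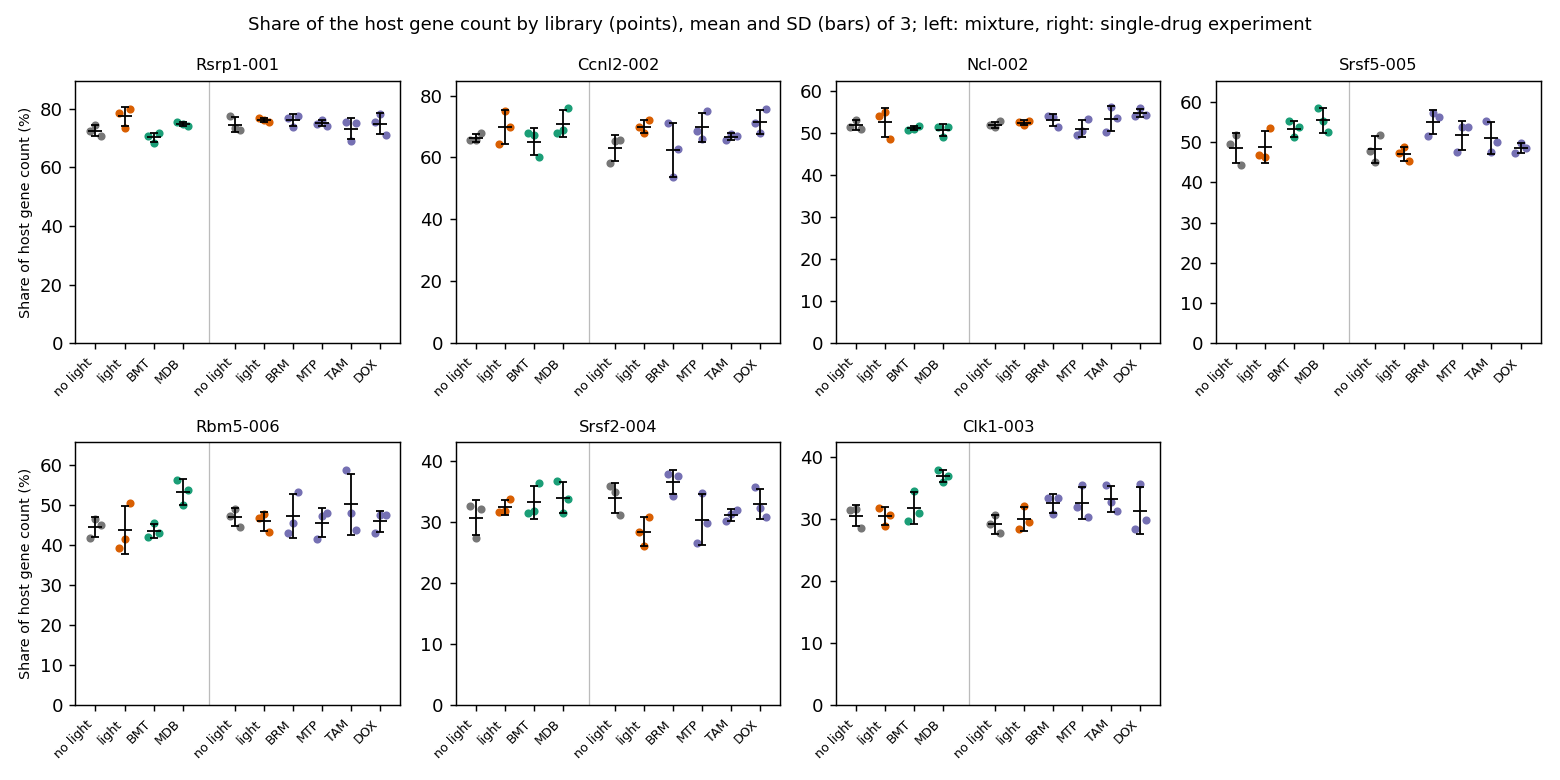
Share of the host gene's count for 7 members of RNA-processing hosts. The y axis is percent, points are libraries, and bars are the mean and SD of 3. The mixture experiment is left and the single-drug experiment right of the grey line. Ncl-002 stayed between 48.7 and 56.3% in all libraries, and Clk1-003 was highest in MDB (36.0 to 38.0%).

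A few hosts outside RNA processing also had a high share. Rpgrip1-003, from the gene of a connecting cilium protein mutated in inherited blindness, held 52.4 to 63.3%, with a median of 58.1%. Uchl1-002, from a neuronal deubiquitinase gene, held 31.5 to 80.1% in 29 libraries and 1.61% in MTP replicate 2. In that library its level was 2.31 CPM, against 71.7 and 68.3 CPM in the other 2 MTP libraries, while the gene's other transcripts were at 141 CPM, against 48.3 and 35.7 CPM. In that library nearly all of the gene's count was assigned to its other transcripts.

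The summed level of all members differed little between groups. Members took 1.44 to 1.59% of the count without light and 1.57 to 1.90% with light in the mixture experiment, and 1.47 to 1.59% and 1.53 to 1.69% in the single-drug experiment, so the ranges overlapped in both. BMT libraries, at 1.42 to 1.49%, all lay below the light libraries. Their median member share, 4.22 to 4.27%, also lay below that with light, 4.27 to 5.21%. Both differences had p = 0.1 in two-sided exact permutation tests over samples, the smallest that 3 against 3 can give, and an adjusted p of 0.8 over the 16 comparisons made. In the other 14 the raw p was 0.2 or higher. MDB libraries (median share 4.89 to 4.99%) had lens fibre scores (mean log2 CPM of the lens markers) of 5.92 to 6.36, and light libraries 1.34 to 5.02. The part of lens RNA in these values was not tested.

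**Figure D3:**
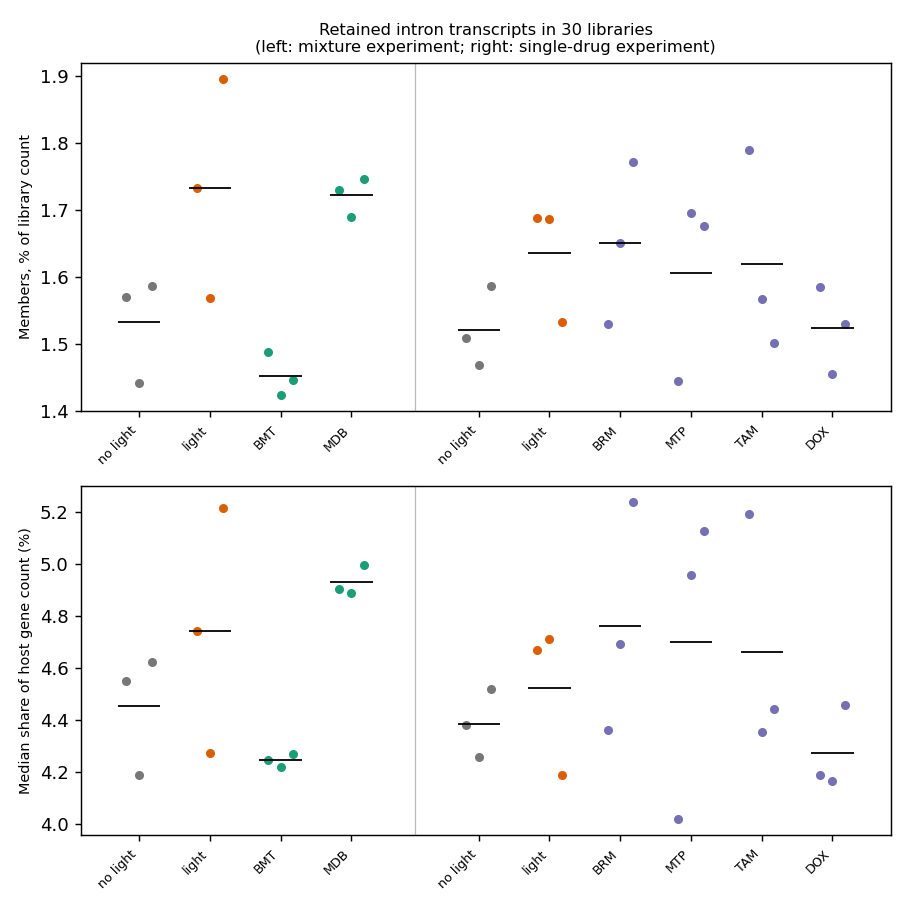
Members as percent of the library count (top) and median share of the host gene's count over members (bottom). Points are libraries and lines group means, with both y axes starting above 0. The BMT libraries lie between 1.42 and 1.49% in the top panel and below all light libraries of the mixture experiment in both panels.

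Bright light changed the level of a small number of members in each experiment. In the mixture experiment edgeR's quasi-likelihood test called 21 members higher and 10 lower of 3117 tested, 0.995% against 2.82% of all transcripts (1.55% higher and 1.27% lower). For the single-drug experiment it called 17 higher and 49 lower of 3120, 2.12% against 5.12% (2.14% higher and 2.98% lower). The called share of members was therefore below the background in both, while the median SE of the log2 fold change was 0.476 and 0.509 for members, against 0.259 and 0.282 for coding transcripts, which were called in 4.62 and 8.75%. Here and in every comparison of a drug group with light below, no called member had overlapping groups. Levels also did not overlap in 14.5 and 19.3% of all 3120 members under light in the 2 experiments. In the drug comparisons this background ran from 14.2% (TAM) to 17.3% (BRM). The number of members called in the mixture experiment fell to 13, 18, 19 and 17 without light replicate 1, light replicate 2, no-light replicate 1 and no-light replicate 3. The single-drug count fell to 29 and 42 without light replicates 2 and 3, and to 40, 40 and 35 without no-light replicates 1, 2 and 3.

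The 2 light comparisons share no library. There were 13 members called in both, all in the same direction, which is 41.9% of the 31 and 19.7% of the 66. Of all transcripts tested in both, 740 were called in both, 66.3 and 34.5% of the 2 lists. The 7 higher were Tnnt2-005, Irf7-004, Sec22c-004, Gnb3-002, Cp-006, Agrn-008 and Stk19-002. The 6 lower were Pde6b-002, Pde6b-003, Nr2e3-002, Gnat2-005, Cacnb2-003 and Ccdc24-002. These 13 are listed by their calls and not by the rule for named members.

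The gene's other transcripts moved with the called members. Their summed level differed in the same direction for 30 of the 31 and 63 of the 66 called members, without overlap of the groups for 27 and 59. The called members had a median log2 difference of 1.35 in the mixture experiment, and their genes' other transcripts 1.16. The single-drug medians were -1.06 and -0.82. Over all 3120 members, the difference of a member and that of its gene's other transcripts had a Pearson r of 0.39 and 0.46 in the 2 experiments (rho 0.23 and 0.38). Over the 686 members with a mean count of at least 100, r was 0.55 in both. Members of 1 gene share its other transcripts, and eXpress splits reads between transcripts that overlap, so these correlations across transcripts are a description and carry no p.

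**Figure D4:**
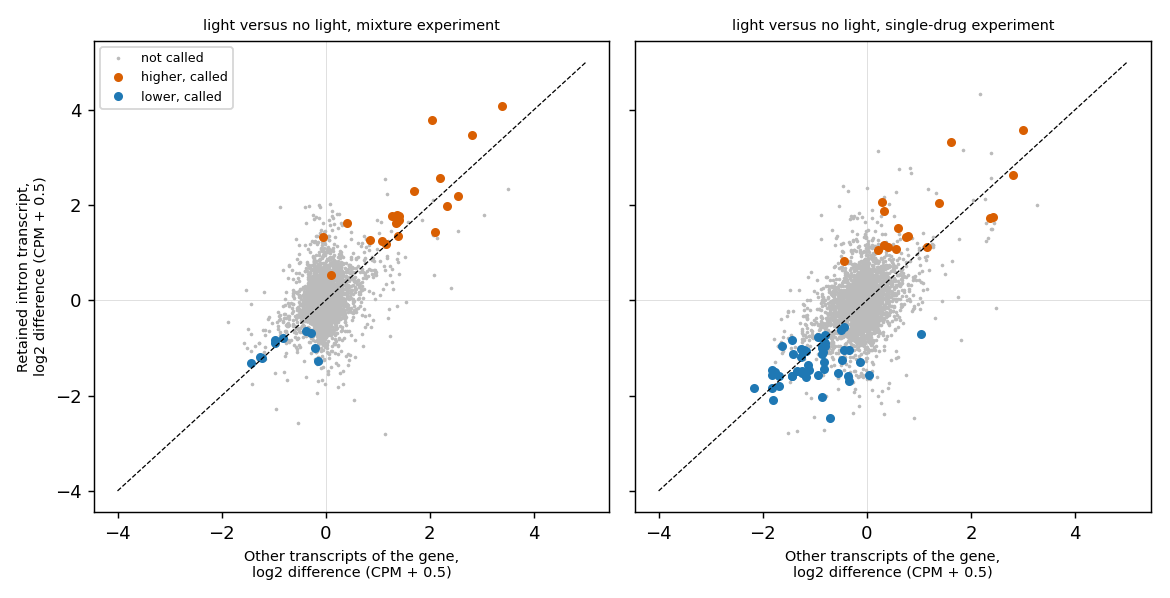
Light minus no light, as difference of mean log2(CPM + 0.5), for each member (y axis) and for the summed other transcripts of its gene (x axis), in each experiment. Orange and blue points are members called higher and lower by edgeR, grey points the rest, and the dashed line marks equal differences. Of the called points, 30 of 31 and 63 of 66 have the same sign on both axes.

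Some members of glial, interferon and cytokine hosts rose with light. Of the 11 in this list (9 genes), 4 rose and none fell in each experiment, and their median log2 fold changes were 2.16 and 2.12, against 0.02 and 0.01 over all transcripts. In the mixture experiment these were Tnnt2-005, Irf7-004, Irf7-009 and Stat3-006, and in the single-drug experiment Tnnt2-005, Irf7-004, Irf9-004 and Tap2-002. Of all transcripts, 1.55% were called higher and 1.27% lower in the mixture experiment, and 2.14 and 2.98% in the single-drug experiment. Irf7 and Irf9 are transcription factors of the interferon response, Stat3 relays cytokine signals in glia, and Tap2 loads peptides for antigen presentation. The Tap2-002 call was lost with the compared groups fitted alone, the lens fibre score as a covariate or no filter (edgeR, adjusted p = 0.12, 0.052 and 0.0625). Tap2-002 overlaps exons of Gm15821 by 533 bases and of Gm20496 by 140 bases, both on the opposite strand. Tnnt2 encodes cardiac troponin T, and whether it marks a glial or interferon response was not tested. The list was chosen with earlier results of these data known and is not independent evidence of its direction. In bulk tissue, a change in the number of cells of a type and in RNA per cell cannot be told apart.

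Tnnt2-005, from the cardiac troponin T gene, had levels of 0.188, 0.237 and 0.226 CPM without light and 13.5, 10.4 and 11.1 CPM with light in the mixture experiment. It had 0.941, 0.176 and 0.198 CPM without and 10.5, 11.1 and 8.44 CPM with light in the single-drug experiment. Every light library lay far above every no-light library in both. The log2 fold change was 5.63 ± 0.84 (SE; edgeR, adjusted p = 0.0050) and 4.46 ± 1.05 (edgeR, adjusted p = 0.0222). The gene's other transcripts went from 0.231, 0.626 and 0.460 CPM to 8.56, 8.75 and 10.4 CPM in the mixture experiment, so the share moved less than the level. It was 44.9, 27.5 and 32.9% without and 61.2, 54.4 and 51.7% with light, and limma did not call it (log2 odds 1.18, 95% interval -0.15 to 2.51, adjusted p = 0.799). In the single-drug experiment, leaving out any of light replicates 1 and 2 and no-light replicates 2 and 3 ended the level call (edgeR, adjusted p of 0.0524, 0.0637, 0.101 and 0.107).

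Irf7-004 rose from 1.15, 2.75 and 2.61 CPM to 22.3, 13.7 and 10.1 CPM in the mixture experiment, and from 1.41, 4.13 and 1.73 CPM to 10.5, 10.8 and 10.7 CPM in the single-drug experiment. Log2 fold changes of 2.82 ± 0.39 and 2.14 ± 0.41 (SE; edgeR, adjusted p = 0.00313 and 0.00672) were found. The 3 single-drug light libraries were nearly equal, and no group overlapped with its control. The other Irf7 transcripts were higher too, going from 5.18, 5.68 and 8.39 CPM to 36.9, 32.9 and 23.3 CPM in the mixture experiment. Stat3-006 rose from 0.719, 0.479 and 0.909 CPM to 5.77, 3.797 and 5.53 CPM in the mixture experiment, a log2 fold change of 2.83 ± 0.51 (edgeR, adjusted p = 0.0147), and was not called in the single-drug experiment (2.12 ± 0.62, edgeR, adjusted p = 0.0652). For Irf9-004 the order was reversed, with 2.06 ± 0.55 (edgeR, adjusted p = 0.0881) and 3.02 ± 0.73 (adjusted p = 0.025). Leaving out any 1 of the 6 libraries ended that last call, with adjusted p between 0.0512 and 0.109.

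Sec22c-004, a short transcript of a vesicle trafficking gene, was called for level in both experiments and had a higher share in every light library. Its level was 1.27, 1.51 and 3.33 CPM without light and 37.2, 34.5 and 26.6 CPM with light in the mixture experiment. It was 2.88, 1.26 and 2.43 CPM without and 27.7, 24.2 and 24.2 CPM with light in the single-drug experiment. The light libraries lay at 24.2 CPM or more and the no-light libraries at 3.33 CPM or less. The log2 fold changes were 4.00 ± 0.60 and 3.53 ± 0.66 (SE; edgeR, adjusted p = 0.00518 and 0.00534). Its share went from 0.879, 1.04 and 2.14% to 5.65, 5.45 and 4.31% in the mixture experiment, and from 1.81, 0.836 and 1.53% to 5.34, 5.22 and 4.62% in the single-drug experiment. The log2 odds rose by 2.06 (95% interval 1.07 to 3.06) and 1.97 (1.27 to 2.67), with limma adjusted p of 0.347 and 0.0692, so neither was called. These rises were smaller than those of the level, so the gene's other transcripts were higher with light as well. Sec22c-004 is 358 bases long and held part of an intron, not a whole one.

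Some members of photoreceptor hosts fell with light and most were not called. Of the 42 in the rod and cone list (17 genes), 5 fell and 2 rose in the mixture experiment and 15 fell and 1 rose in the single-drug experiment, with median log2 fold changes of -0.41 and -0.93. Beside these, 1.27 and 2.98% of all transcripts were called lower and 1.55 and 2.14% higher in the 2 experiments. The members that fell in both were Pde6b-002, Pde6b-003, Nr2e3-002 and Gnat2-005. Pde6b encodes a subunit of the rod phosphodiesterase that breaks down cGMP, Nr2e3 a nuclear receptor that sets rod identity, and Gnat2 the transducin alpha subunit of cones. The risers were both Gnb3 members in the mixture experiment and Gnb3-002 in the single-drug experiment. Gnb3 encodes a G protein beta subunit of cones and ON bipolar cells, so it is not a rod gene.

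Pde6b-002 fell from 132, 102 and 115 CPM to 58.6, 56.6 and 71.5 CPM in the mixture experiment, and from 108, 102 and 131 CPM to 58.6, 45.1 and 44.6 CPM in the single-drug experiment. All light libraries lay below all no-light libraries. The log2 fold changes were -0.90 ± 0.12 and -1.20 ± 0.20 (SE; edgeR, adjusted p = 0.00274 and 0.00237). The share did not follow, at 4.79, 4.29 and 4.41% without and 4.61, 4.73 and 4.77% with light in the mixture experiment. Its log2 odds differed by 0.07 there (95% interval -0.20 to 0.34) and by 0.06 in the single-drug experiment (-0.27 to 0.39).

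Nr2e3-002 fell from 54.9, 39.5 and 63.0 CPM to 20.9, 17.6 and 22.7 CPM, and from 46.3, 50.04 and 44.997 CPM to 19.2, 8.97 and 11.8 CPM. This gave log2 fold changes of -1.36 ± 0.19 and -1.82 ± 0.34 (SE; edgeR, adjusted p = 0.00319 and 0.00515). Its share of 5.67 to 10.6% over all libraries overlapped between the groups. Gnat2-005 fell from 38.4, 28.5 and 32.9 CPM to 12.4, 11.1 and 19.8 CPM, and from 23.3, 24.998 and 36.7 CPM to 15.997, 12.9 and 13.2 CPM (log2 fold changes -1.20 ± 0.20 and -1.01 ± 0.27, edgeR, adjusted p = 0.00874 and 0.0419). The Gnat2-005 call in the mixture experiment was lost without light replicate 1 (edgeR, adjusted p = 0.0539) and with the compared groups fitted alone (0.0797). The single-drug call was lost without any of light replicates 1, 2 and 3 and no-light replicates 2 and 3 (edgeR, adjusted p of 0.0804, 0.173, 0.13, 0.0749 and 0.206), and with the lens fibre score as a covariate, FPKM, voom or no filter (0.052 to 0.0893).

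Gnb3-002 went the other way from its list. It had 67.9, 56.9 and 57.3 CPM without and 150, 142 and 174 CPM with light in the mixture experiment, and 62.5, 44.6 and 50.3 CPM and 135, 122 and 140 CPM in the single-drug experiment. Its log2 fold changes were 1.36 ± 0.14 and 1.34 ± 0.23 (SE; edgeR, adjusted p = 8.63e-04 and 0.00288). The other Gnb3 transcripts also lay higher with light, at 409 to 470 CPM against 148 to 192 CPM in the mixture experiment. The Gnb3-002 share differed by 0.59 log2 odds (95% interval 0.19 to 0.99; limma, adjusted p = 0.491) in the single-drug experiment and by -0.03 (-0.47 to 0.41) in the mixture experiment.

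In the single-drug experiment further rod members fell that were not called in the mixture experiment. Gnat1-002, from the rod transducin alpha gene, fell from 99.8, 105 and 96.5 CPM to 32.0, 29.9 and 37.9 CPM (log2 fold change -1.59 ± 0.23, edgeR, adjusted p = 0.00115). In the mixture experiment its levels of 72.8, 97.2 and 110 CPM without and 57.8, 64.0 and 86.8 CPM with light overlapped (-0.42 ± 0.20, edgeR, adjusted p = 0.391). Prph2-002 fell from 205, 235 and 204 CPM to 120, 68.9 and 112 CPM (-1.10 ± 0.20, edgeR, adjusted p = 0.0052), against -0.56 ± 0.14 in the mixture experiment (adjusted p = 0.0738). Sag (rod arrestin), Tulp1 and Cngb1 (a subunit of the rod cGMP-gated channel) also had members that fell in the single-drug experiment. Over all members, however, edgeR, testing whether light acted unequally in the 2 experiments, called 0 of 3120. It gave 223 at an unadjusted p under 0.05 and called 0 of the 45623 transcripts tested.

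**Figure D5:**
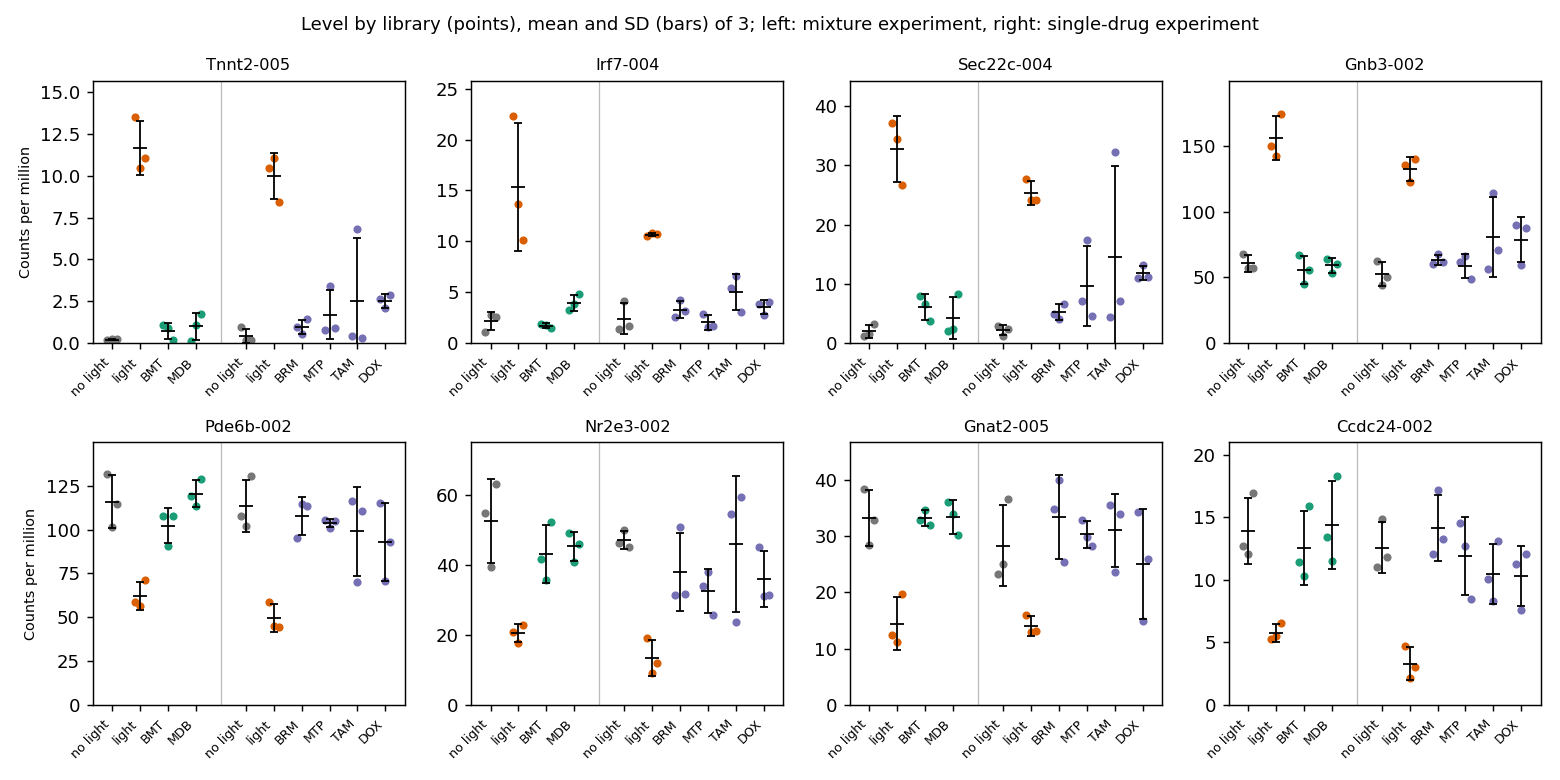
Level in CPM of 8 members called under light in both experiments. Points are libraries, bars the mean and SD of 3 (cut at 0), with the mixture experiment left and the single-drug experiment right of the grey line and CPM normalised within each. Light libraries lie above all no-light libraries for the 4 upper members and below them for the 4 lower members. The high TAM point of Tnnt2-005 (6.83 CPM), Sec22c-004 (32.2 CPM) and Gnb3-002 (114 CPM) is TAM replicate 2.

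Of the other members called in both experiments, Cp-006, from the iron oxidase ceruloplasmin, rose from 6.41, 7.56 and 7.84 CPM to 18.2, 21.8 and 21.9 CPM (log2 fold change 1.51 ± 0.22, edgeR, adjusted p = 0.0042), and by 1.83 ± 0.35 in the single-drug experiment (adjusted p = 0.00582). Its gene's other transcripts had 88.3 to 170 CPM without and 422 to 525 CPM with light in the mixture experiment. Cacnb2-003, from a calcium channel beta subunit of photoreceptor synapses, fell from 61.5, 64.6 and 69.6 CPM to 41.7, 43.4 and 40.3 CPM (-0.64 ± 0.14, edgeR, adjusted p = 0.037), and by -0.98 ± 0.17 in the single-drug experiment (adjusted p = 0.004). Ccdc24-002 fell from 12.7, 12.1 and 16.95 CPM to 5.24, 5.47 and 6.54 CPM (-1.28 ± 0.23, edgeR, adjusted p = 0.0152), and by -1.94 ± 0.31 in the single-drug experiment (adjusted p = 0.00213). It overlaps exons of B4galt2 by 899 bases on the same strand and of Slc6a9 by 557 bases on the opposite strand, and which of these genes its reads came from was not tested. The Ccdc24-002 call in the mixture experiment was lost without light replicates 1 or 2 or no-light replicate 3 (edgeR, adjusted p of 0.0856, 0.0791 and 0.0728).

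Few members of splicing hosts were called, beside 0.995 and 2.12% of all members in the 2 experiments, so the counts are not read as a result about these hosts. Of 39 members of SR protein and related genes, 1 was higher with light in the mixture experiment and none was called in the single-drug experiment. Of 35 members of spliceosome genes, 1 (Snrnp200-002) was lower in the single-drug experiment, and of 33 members of hnRNP genes none was called in either. Their median log2 fold changes were 0.14, 0.04 and 0.05 in the mixture experiment and -0.08, 0.05 and 0.16 in the single-drug experiment, beside 0.06 and -0.06 over all members. The SR-related call was Nktr-005, from a cyclophilin-like gene, at 22.9, 22.0 and 21.0 CPM without and 33.1, 28.0 and 35.4 CPM with light (log2 fold change 0.55 ± 0.12, edgeR, adjusted p = 0.034). That call was lost without any 1 library except light replicate 2, with edgeR adjusted p between 0.0789 and 0.147, with the compared groups fitted alone (0.102) and with no filter (0.0747). The steady member Ncl-002 shown above differed by -0.03 ± 0.08 and 0.23 ± 0.09 under light, and Rsrp1-001 by 0.08 ± 0.14 and 0.22 ± 0.08.

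Of 19 members of CLK, cyclin L and other splicing kinase genes, none was called in the mixture experiment and 2, both of cyclin L1, rose in the single-drug experiment. Of all transcripts, 2.14% were called higher and 2.98% lower in the single-drug experiment. The counts of this list and of the ciliary list below are not read as a result about these hosts. Ccnl1-006 rose from 7.73, 8.09 and 6.96 CPM to 15.7, 16.6 and 18.7 CPM (log2 fold change 1.16 ± 0.15, edgeR, adjusted p = 7.03e-04), and its share went from 8.59, 8.30 and 7.55% to 11.2, 12.3 and 15.9%. In the mixture experiment its levels of 9.32, 13.3 and 13.5 CPM without and 10.8, 9.30 and 14.6 CPM with light overlapped. Ccnl1-006 overlaps exons of Gm37305 by 374 bases on the opposite strand. The other cyclin L1 member called, Ccnl1-004, overlaps exons of the same gene by 392 bases on the opposite strand. Its call was lost with the compared groups fitted alone (edgeR, adjusted p = 0.0886) and with voom (limma, adjusted p = 0.0634). Of 11 members of ciliary genes, 1 was called, Rpgrip1-003, which fell by 0.87 ± 0.23 on the log2 scale in the single-drug experiment (edgeR, adjusted p = 0.043), and leaving out any 1 library ended the call (adjusted p of 0.0556 to 0.214), as did the compared groups fitted alone (0.0505) and FPKM (0.108). No member of the nuclear retention, stress response, glycolysis or circadian lists was called under light.

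No share of any member was called in any comparison by limma on the log2 odds of the member against its gene's other transcripts. For light in the mixture experiment, 144 of 3100 members had an unadjusted p under 0.05 (99 with a higher share), and 0.0219% of all transcripts were called (0.00627% higher and 0.0157% lower). For light in the single-drug experiment, 172 of 3101 had one (83 higher), and 0.00294% of all transcripts were called (0% higher and 0.00294% lower). These called percents use the adjusted p, so they are no background for the unadjusted counts, here or in the drug comparisons below. No unadjusted percent over all transcripts is set beside those counts, and they are not read as a result about the members. The median SE of the log2 odds was 0.537 and 0.577, which sets the size of a change in share that these libraries could show. The within-gene test of edgeR (diffSpliceDGE) called 1 and 3 members. For the difference between the 2 light effects on share, limma called 0 of 3101, with 162 at an unadjusted p under 0.05.

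There were 11 members with an unadjusted p under 0.05 for share under light in both experiments, 10 of them with the same sign, out of 3098 tested in both. Over all transcripts tested in both it was 245 of 30633, 191 with the same sign, and the members' count is not read as a result about them. These members were chosen here after their values were seen. Of the 10, 6 had a higher share with light: Sec22c-004, above, and Cnot7-004, Aff1-003, Atxn7l3-004, Ccnt2-007 and Alas1-006. The log2 odds of these 5 differed by 2.09, 1.49, 2.61, 1.49 and 3.17 in the mixture experiment and by 1.98, 0.87, 4.38, 1.21 and 1.98 in the single-drug experiment, none of them called by limma. In 3 others the share was lower with light and the other transcripts of the gene were higher. Mmp12-005, from a macrophage metalloproteinase gene, held 100, 100 and 99.97% of the gene's count without light in the mixture experiment and 53.2, 79.4 and 86.0% with light. It went from 100, 100 and 97.6% to 70.6, 67.1 and 72.0% in the single-drug experiment. Its own level stayed within 2.94 to 8.94 CPM in these 12 libraries, while the other transcripts went from at most 0.142 CPM to between 1.45 and 3.75 CPM. Cd9-003, from a tetraspanin gene, had a share of 9.65, 6.39 and 6.57% without and 3.70, 1.74 and 2.62% with light in the mixture experiment, with other transcripts at 30.5 to 44.1 CPM without and 88.2 to 113 CPM with light. Shisa4-003 went from 74.0, 65.7 and 76.8% to 42.3, 43.3 and 60.0%. The shares of these 3 were not called by limma (adjusted p of 0.12 to 0.491 in the 2 experiments). Osgep-008 was the other with a lower share, by -0.67 and -1.45 log2 odds, and Ipo8-003 had opposite signs, -1.20 and 1.02.

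Osgep-008, from a tRNA-modifying enzyme gene, had a lower share with light in both experiments, and its own level fell in the single-drug experiment. Its share was 21.8, 23.8 and 24.96% without and 14.1, 17.9 and 16.7% with light in the mixture experiment, and 31.3, 32.6 and 35.1% and 20.6, 13.6 and 12.4% in the single-drug experiment. The light libraries lay below the no-light libraries in both. In the single-drug experiment its level fell from 12.8, 13.1 and 16.4 CPM to 5.49, 3.37 and 3.45 CPM (log2 fold change -1.78 ± 0.35, edgeR, adjusted p = 0.00716). The other transcripts had 27.2 to 30.4 CPM without and 21.2 to 24.2 CPM with light. The log2 odds differed by -0.67 (95% interval -1.19 to -0.14) and -1.45 (-2.27 to -0.63), with limma adjusted p of 0.706 and 0.373.

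Both drug mixtures given before light were compared with light alone, so these comparisons share the light libraries with each other and with the comparison above. With BMT, edgeR called 12 members higher and 20 lower of 3117, 1.03% against 3.11% of all transcripts (1.73% higher and 1.38% lower). With MDB it called 14 higher and 9 lower, 0.738% against 1.92% (0.702% higher and 1.22% lower). The other transcripts of the gene differed in the same direction for 31 of 32 and 23 of 23 called members. For share limma called 0 in either, with 208 (47 higher) and 130 (78 higher) at an unadjusted p under 0.05 and 0.0219 and 0.0313% of all transcripts called. By direction these were 0.0125% higher and 0.0094% lower with BMT and 0.0157% each way with MDB. The within-gene edgeR test called 3 and 2 members. The BMT level count fell to 19, 10, 7 and 12 without BMT replicates 1 and 3 and light replicates 1 and 2. The MDB count fell to 11, 9, 8, 4 and 5 without MDB replicates 1, 2 and 3 and light replicates 1 and 2, and to 13 with the lens fibre score as a covariate.

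Of the 11 glial and interferon members, 4 were called lower than with light alone with BMT and 2 with MDB, and none higher. Of all transcripts, 1.38 and 1.22% were called lower and 1.73 and 0.702% higher with BMT and MDB. Tnnt2-005 had 1.06, 0.935 and 0.208 CPM in BMT and 0.132, 1.12 and 1.76 CPM in MDB, all below the light libraries. The log2 fold changes were -3.97 ± 0.76 (edgeR, adjusted p = 0.0185) and -3.52 ± 0.74 (adjusted p = 0.0397). Irf7-004 had 1.90, 1.82 and 1.46 CPM in BMT and 3.25, 3.82 and 4.79 CPM in MDB (-3.15 ± 0.40 and -1.95 ± 0.37, edgeR, adjusted p = 0.00237 and 0.0253). Sec22c-004 had 7.95, 6.63 and 3.68 CPM in BMT and 2.00, 2.43 and 8.39 CPM in MDB (-2.42 ± 0.56 and -2.94 ± 0.57, edgeR, adjusted p = 0.0436 and 0.0268). Gnb3-002, at 45.2 to 66.6 CPM in BMT and 53.1 to 63.6 CPM in MDB, overlapped with the no-light libraries at 56.9 to 67.9 CPM, and both calls held without any 1 library. Leaving out 1 library ended the other calls of this kind: Tnnt2-005 with BMT without BMT replicates 1, 2 or 3 or light replicates 1 or 2 (edgeR, adjusted p of 0.0539 to 0.0717) and with MDB without MDB replicates 2 or 3 or any light replicate (0.0632 to 0.142), Sec22c-004 with BMT without any 1 library (0.0775 to 0.185) and with MDB without any but MDB replicate 3 (0.0506 to 0.114), and Irf7-004 with MDB without any but light replicate 3 (0.0716 to 0.122). With the lens fibre score as a covariate the MDB calls of Tnnt2-005, Sec22c-004 and Irf7-004 (0.0692, 0.086 and 0.0781) and that of Sec22c-004 with BMT (0.0572) were lost, and with the compared groups fitted alone those of Tnnt2-005 and Sec22c-004 with MDB (edgeR, adjusted p = 0.0738 and 0.0557).

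Of the 42 photoreceptor members, 6 were called higher and 2 lower with BMT, and 7 higher and 2 lower with MDB. In both mixtures the lower ones were the 2 Gnb3 members. Over all transcripts, 1.73% were called higher and 1.38% lower with BMT, and 0.702 and 1.22% with MDB. Pde6b-002 had 108, 90.6 and 108 CPM in BMT and 119, 114 and 129 CPM in MDB, all above the light libraries (log2 fold changes 0.72 ± 0.12 and 0.95 ± 0.12, edgeR, adjusted p = 0.0101 and 0.00295). Nr2e3-002 was higher by 1.08 ± 0.19 and 1.15 ± 0.19 and Gnat2-005 by 1.20 ± 0.20 and 1.21 ± 0.20 (edgeR, adjusted p of 0.00878 to 0.0115). Gnat1-002 had 64.2, 56.2 and 74.3 CPM in BMT, which overlapped with light, and 146, 105 and 137 CPM in MDB (0.89 ± 0.20, edgeR, adjusted p = 0.0495), a call lost without any 1 library but light replicate 3 (0.0547 to 0.214). Leaving out light replicate 1 ended the calls of Pde6b-002 with BMT (edgeR, adjusted p = 0.0598) and of Nr2e3-002 and Gnat2-005 in both mixtures (0.0524 to 0.0677). Leaving out light replicate 2 ended those of Pde6b-002 and Nr2e3-002 with BMT (0.0562 and 0.0622) and of Nr2e3-002 and Gnat2-005 with MDB (0.0694 and 0.0546), and leaving out MDB replicate 1 the last pair (both 0.0507). With the compared groups fitted alone, Gnat2-005 was lost in both mixtures (0.0512 and 0.0547) and Gnat1-002 with MDB (0.0742), the latter also with the lens fibre score (edgeR, adjusted p = 0.147) and with FPKM (limma, adjusted p = 0.0632). With BMT, Timm44-003, from a mitochondrial import gene, had 17.99, 18.2 and 26.5 CPM against 8.20, 9.61 and 5.78 CPM with light (1.40 ± 0.27, edgeR, adjusted p = 0.0177). Its other transcripts stayed at 41.8 to 45.5 against 34.7 to 40.6 CPM, and its share was 30.1, 28.6 and 36.8% against 16.8, 20.03 and 14.3% (limma, adjusted p = 0.45). Its level call was lost without BMT replicate 3 or light replicates 1 or 3 (edgeR, adjusted p of 0.0629 to 0.0817).

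Each single drug was compared with the light libraries of its own experiment, which these comparisons share. With BRM, edgeR called 23 members higher and 5 lower of 3120, 0.897% against 1.87% of all transcripts (0.985% higher and 0.888% lower). With MTP it called 10 and 4, 0.449% against 1.49% (0.992 and 0.499%), with TAM 19 and 3, 0.705% against 1.56% (1.22 and 0.342%), and with DOX 12 and 5, 0.545% against 1.28% (0.94 and 0.342%). The other transcripts of the gene differed in the same direction for 27 of 28, 13 of 14, 20 of 22 and 15 of 17. For share limma called none, with 175, 148, 146 and 172 at an unadjusted p under 0.05, and the within-gene edgeR test called 4, 1, 3 and 5. Of all transcripts, limma called 0, 0.00588, 0.00294 and 0.00882% for share, of which 0, 0.00294, 0 and 0.00588% were higher and 0, 0.00294, 0.00294 and 0.00294% lower.

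These counts moved with single libraries. BRM gave 11, 4 and 7 without BRM replicates 1, 2 and 3, and 12, 2 and 18 without light replicates 1, 2 and 3. MTP gave 3, 3 and 6 without MTP replicates 1, 2 and 3, and 8, 0 and 4 without light replicates 1, 2 and 3. DOX gave 0 and 8 without DOX replicates 1 and 2, and 4 and 0 without light replicates 1 and 2. TAM gave 51 without TAM replicate 2, 3 and 1 without TAM replicates 1 and 3, and 13, 1 and 5 without light replicates 1, 2 and 3. MTP gave 6 with the lens fibre score as a covariate, where MTP replicates 1 and 3 had scores of 1.71 and 1.42 and replicate 2 of 6.19.

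Members of photoreceptor hosts made up part of each list: 7 higher and 1 lower with BRM, 4 and 1 with MTP, 8 and 0 with TAM and 4 and 0 with DOX, of 42. Their median log2 differences were 0.79, 0.89, 0.87 and 0.66. Over all transcripts, 0.985, 0.992, 1.22 and 0.94% were called higher with the 4 drugs in this order, and 0.888, 0.499, 0.342 and 0.342% lower. Pde6b-002 was called higher with all 4 drugs, at 94.96, 115 and 114 CPM with BRM, 105, 101 and 105 CPM with MTP, 116, 70.0 and 111 CPM with TAM and 115, 70.7 and 92.9 CPM with DOX, against 58.6, 45.1 and 44.6 CPM with light. Relative to light, its log2 fold changes were 1.12 ± 0.20, 1.07 ± 0.20, 1.00 ± 0.19 and 0.91 ± 0.19 (SE; edgeR, adjusted p = 0.0125, 0.015, 0.0187 and 0.0348). Gnat1-002 was called with all 4 as well, with 1.48 ± 0.23, 1.11 ± 0.23, 1.30 ± 0.23 and 1.41 ± 0.23 (edgeR, adjusted p of 0.00824 to 0.0263). Without light replicate 2, or without BRM replicate 2, DOX replicate 1 or TAM replicate 3, neither member was called for that drug (edgeR, adjusted p of 0.0501 to 0.222). MTP lost Gnat1-002 without any 1 library (0.0514 to 0.143) and Pde6b-002 without MTP replicates 1 or 3 or light replicates 2 or 3 (0.0501 to 0.0935). TAM lost Pde6b-002 also without TAM replicate 1 or light replicate 3 (0.0779 and 0.0919), and DOX without DOX replicate 3 or light replicates 1 or 3 (0.0632 to 0.0931) and Gnat1-002 without light replicate 1 (0.0544). With only the compared groups fitted, neither member was called for TAM (edgeR, adjusted p = 0.202 for Pde6b-002 and 0.181 for Gnat1-002) or DOX (0.134 and 0.0973). With the lens fibre score as a covariate, neither was called for MTP (0.0503 and 0.0661) and Pde6b-002 was not for DOX (edgeR, adjusted p = 0.0637), nor with FPKM (limma, 0.052). The drugs themselves were not tested against each other.

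Tnnt2-005 and Sec22c-004 were not called with any single drug. With BRM their log2 fold changes were -3.32 ± 0.99 and -2.27 ± 0.62 (SE; edgeR, adjusted p = 0.113 and 0.0795). With MTP they were -2.55 ± 0.95 and -1.39 ± 0.60 (edgeR, adjusted p = 0.272 and 0.373). All BRM and MTP libraries lay below the light libraries for both members. The libraries of Sec22c-004 spread most with MTP and TAM. Sec22c-004 had 4.95, 4.09 and 6.69 CPM with BRM, 7.04, 17.3 and 4.67 CPM with MTP, 4.36, 32.2 and 7.17 CPM with TAM and 11.1, 13.1 and 11.2 CPM with DOX. Only TAM replicate 2 reached the light libraries at 24.2 to 27.7 CPM. Irf7-004 was lower with BRM (-1.69 ± 0.41, edgeR, adjusted p = 0.0477) and MTP (-2.38 ± 0.42, adjusted p = 0.0131) and not called with TAM (-1.08 ± 0.40, adjusted p = 0.263) or DOX (-1.59 ± 0.40, adjusted p = 0.0729). Its levels in all 12 drug libraries, 1.56 to 6.60 CPM, lay below the light libraries at 10.5 to 10.8 CPM. The BRM call was lost without any 1 library (edgeR, adjusted p of 0.0853 to 0.163), with the lens fibre score (0.0641) and with no filter (0.075), and the MTP call without MTP replicates 2 or 3 or light replicate 2 (0.0561 to 0.0669).

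For some called members the other transcripts of the gene overlapped with light or differed the other way. Ndufb4-002, from a complex I subunit, had 1.20, 0.785 and 0.937 CPM with DOX against 3.83, 8.12 and 4.17 CPM with light (-2.45 ± 0.56, edgeR, adjusted p = 0.0465), while its other transcripts had 16.02 to 24.8 against 10.5 to 18.1 CPM. Rpl13a-008 had 58.7, 54.3 and 51.0 CPM with BRM against 99.1, 99.8 and 111 CPM with light (-0.92 ± 0.20, edgeR, adjusted p = 0.0346), while its other transcripts had 281 to 322 against 146 to 271 CPM. Its share was 17.3, 15.7 and 13.7% with BRM against 32.3, 40.5 and 29.0% with light (limma, adjusted p = 0.315). Alkbh6-002, from a dioxygenase-family gene, had 2.04, 2.42 and 1.40 CPM with TAM against 7.04, 4.81 and 9.12 CPM with light (-1.83 ± 0.41, edgeR, adjusted p = 0.0379). Its other transcripts had 7.73 to 20.2 against 7.68 to 12.8 CPM, and it overlaps Gm24757 by 56 bases on the same strand. Leaving out any 1 library ended the Ndufb4-002 call (edgeR, adjusted p of 0.0571 to 0.238) and the Rpl13a-008 call (0.0802 to 0.141), and any 1 but TAM replicate 2 the Alkbh6-002 call (0.0723 to 0.217). The compared groups fitted alone ended the Ndufb4-002 and Alkbh6-002 calls (0.104 and 0.197), no filter the same calls (0.0664 and 0.0524), the lens fibre score those of Rpl13a-008 and Alkbh6-002 (edgeR, adjusted p = 0.0512 and 0.0518), and voom that of Alkbh6-002 (0.0866).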

How the data were processed

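Retinas of 30 samples were profiled by stranded poly(A) RNA-seq. The authors deposited eXpress effective counts (expected counts per transcript, split between transcripts where reads fit several) and FPKM, per the file headers, on GRCm38.p3. Trimmomatic, Bowtie2, TopHat2, eXpress, edgeR and limma are named in the submitters' processing notes. Whether eXpress used strand is not stated in the labels or headers. The deposited percent of GC, and other annotation columns, only described transcripts.

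Effective counts were rounded, filtered with filterByExpr, TMM-scaled within each experiment and tested over all transcripts with edgeR 4.0.16 (quasi-likelihood, R 4.3.3). Shares were tested with limma 3.58.1 on log2((count + 0.5)/(other transcripts + 0.5)) where the others had a mean of at least 10. Called means a Benjamini-Hochberg adjusted p under 0.05. DESeq2 1.42.0, other filters, FPKM, voom, a lens covariate and left-out libraries were alternatives, and the test scripts were tested on simulated data. Introns of at least 50 bases and splice sites came from GENCODE M21. The members and lists were chosen with earlier results of these data known. Named members were the 10 highest by FPKM, the largest called rises and falls with non-overlapping libraries and a mean count of at least 50 (6 each under light, 4 for mixtures, 3 for single drugs), and up to 3 per host list by the p of the share. Others were named after their values were seen, among them Cp-006, Cacnb2-003, Stat3-006 and the members named for a high share.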

Additional observations from a re-analysis of the deposited data

Results flagged for a closer look

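For 2 named members, light moved the share in every library one way in the mixture experiment and the opposite way in the single-drug experiment. The share of Plch2-005 went from 12.5, 15.0 and 16.2% to 18.5, 17.3 and 19.1% in the mixture experiment and from 15.2, 13.6 and 13.1% to 12.7, 12.6 and 12.6% in the single-drug experiment. The difference between the 2 light effects was -0.559 log2 odds and was not called (limma, adjusted p = 0.756). The share of Nktr-005 went from 11.5, 12.4 and 11.8% to 15.9, 14.6 and 16.3% and from 15.3, 14.6 and 15.2% to 11.7, 12.8 and 13.8%, a difference of -0.729 log2 odds that was not called either (limma, adjusted p = 0.689). Of all 3120 members, 11.3% in the mixture and 13.9% in the single-drug experiment had shares that did not overlap between light and no light. Of the members, 19 did so in both experiments in opposite directions and 50 in the same direction. For level, 14.5 and 19.3% of members did not overlap. In both experiments 26 did so in opposite directions and 128 in the same direction.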

How the results depend on the processing

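Counts of members called for level depended on the tool and the libraries. With DESeq2 they were 93 and 138 for light in the mixture and single-drug experiments, 114 for BMT, 77 for MDB, 108 for BRM, 76 for MTP, 80 for TAM and 66 for DOX. Fitting only the compared groups gave 20 for light in the mixture experiment, 19 for BMT and 0 for TAM and DOX. FPKM with limma gave 53 for light in the mixture experiment (44 higher, 9 lower), 76 for BMT (10 higher, 66 lower), 57 for BRM, 22 for MTP and 26 for DOX, and for light in the single-drug experiment 47 higher and 46 lower. With no filter on low counts BRM gave 16, TAM 13 and DOX 10, voom gave 13 for TAM, and the lens score as a covariate gave 13 for MDB and 6 for MTP. Leaving out 1 library gave 13 to 30 and 29 to 47 for light in the 2 experiments, 7 to 25 for BMT, 4 to 21 for MDB, 2 to 18 for BRM, 0 to 8 for MTP, 1 to 51 for TAM and 0 to 14 for DOX. The difference between the light effects stayed at 0 in all alternatives run. For share, diffSpliceDGE called 1 and 3 members for light, 3 for BMT, 2 for MDB, 4 for BRM, 1 for MTP, 3 for TAM and 5 for DOX, the compared groups alone gave 1 for MDB and 1 for TAM, and a pseudocount of 5 gave 1 for light in the single-drug experiment. Without 1 library the share counts ran from 0 to 1 for BMT, BRM, DOX, MTP and TAM, from 0 to 2 for MDB and light in the single-drug experiment, and stayed at 0 for light in the mixture experiment. The share difference of Mdm2-009 under light in the mixture experiment (-0.358 log2 odds) ran from -0.651 to 0.127 without 1 library and changed sign without light replicate 1. The correlation of deviations was over 0.1 in 4 of 18 and 11 of 45 same-numbered pairs, against 12 of 36 and 37 of 90 other pairs. Same-numbered samples were therefore not more alike by this count. The highest same-numbered correlation was 0.73 and 0.65, against 0.55 and 0.54 in other pairs, and the check cannot exclude a pairing. The fit with the replicate number as a block gave 25 and 55 for light, 18 for BMT, 18 for MDB, 22 for BRM, 13 for MTP, 15 for TAM and 8 for DOX. The cause of these changes was not tested, beyond the smaller number of samples where libraries were left out.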
